A study of Mus musculus with 18 samples.

Results

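The 42 genes described here encode lysosomal hydrolases, their activator proteins and proteins of the lysosomal membrane. They were taken by symbol from a list, and all 42 were found among the 35441 genes of the count table. By role, 15 were glycan and glycosaminoglycan hydrolases, 7 sphingolipid and phospholipid enzymes and activators, 6 proteases, phosphatases and other lumenal proteins, 2 cholesterol export proteins, 7 structural membrane proteins and 5 channels and transporters. The cathepsins, Lipa itself and the proton pump were not part of the list.

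Liver polyA RNA of 18 male mice was sequenced, 3 for each of 6 groups. Mice labelled 12- and 34-weeks after injection (3 and 8 months in the sample descriptions) were, under each label, untreated WT mice, untreated Lipa-/- mice and Lipa-/- mice given the rAAV8 vector. Lipa-/- mice lacked exon 4 of Lipa, the gene of lysosomal acid lipase, through a tm1a(EUCOMM) allele recombined by Cre under the CMV promoter, which acts in all tissues, and were kept on the C57BL/6N background. Treated mice had received, by the tail vein, a vector with human LIPA carrying a 3xHA tag behind the hAAT promoter, which restricts expression to hepatocytes. The dose given to each mouse is not in the labels used here. Each sample was a separate mouse, and most untreated Lipa-/- mice of the longer arm of the study had reached humane endpoints before its end. Some of the untreated Lipa-/- livers labelled 34-weeks were therefore taken earlier, from mice at an endpoint, and the labels do not say which. For these mice 34-weeks is a group label, and their time is not matched to that of WT and treated mice. All 34-weeks mice carried 1 study code and all 12-weeks mice another, except a Lipa-/- mouse with a code of its own, so time and study code cannot be told apart.

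The lysosome is an acidic compartment in which glycans, sphingolipids, proteins and cholesteryl esters are broken down. Most of its hydrolases are tagged with mannose 6-phosphate in the Golgi and delivered through receptors, while heavily glycosylated proteins such as the LAMPs line the membrane, and transporters export the products. Lysosomal acid lipase releases cholesterol from cholesteryl esters, and the NPC proteins then carry it out. Many genes of this system share a promoter element around the letters CACGTG, through which TFEB and related factors act, and macrophages express many of them strongly.

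Library size ranged from 17527848 to 25833134 estimated reads a mouse, and TMM scaling factors from 0.587 to 1.69. Lipa had 202 to 267 CPM (counts scaled to library size after TMM scaling) in WT mice at 12-weeks and 283 to 323 CPM at 34-weeks, against 16.7 to 37.0 CPM over all 12 Lipa-/- mice, treated or not. The remaining reads do not say whether exon 4 was read, and the human transgene was not counted. Hepatocyte markers were present in all groups, none at zero, and 6 and 8 of the 12 fell in Lipa-/- mice at 12- and 34-weeks. Of 14 macrophage and monocyte markers, 13 and 12 rose in Lipa-/- mice at 12- and 34-weeks. Their summed level was 96.5 to 229 CPM in WT, 4180 to 7960 CPM in Lipa-/- and 710 to 2550 CPM in treated mice at 12-weeks, and 171 to 331, 3340 to 5870 and 268 to 694 CPM at 34-weeks. None of these 14 markers was at zero in any group. The 8 Kupffer cell markers were split, with 5 rising and 1 falling (Timd4) at 12-weeks and 3 rising (C1qa, C1qb and C1qc) and 2 falling (Timd4 and Clec4f) at 34-weeks. The 8 stellate cell and myofibroblast markers were also split, with 5 and 6 rising and 1 and 2 falling. Of the neutrophil markers 8 and 6 of 8 rose, and of the cholangiocyte markers 4 and 6 of 6, with none falling. Of the neutrophil markers, Ly6g, Camp and Ngp were at zero in WT mice at 12-weeks. In whole liver, more cells of a type and more RNA per cell cannot be told apart.

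The promoters of the members were read from GRCm39, from 250 bases before to 50 bases into the start of the canonical transcript, since the members include genes that moved together. The letters CACGTG, which read the same on both strands, were found in 10 of 42 members (23.8%) against 7.93% of 20883 protein-coding genes of the table and 12 of 51 other lysosomal genes (23.5%). The longer TCACGTG, on either strand, was also found in 10 members, against 4.24% of all, and TCACGTGA in 4 (9.52%), against 1.13% of all and 17.6% of the other lysosomal genes. Shorter and longer motifs overlap by construction. CACGTG was found in 5 of the 20 members that rose in Lipa-/- mice at either time, in 1 of the 3 that fell and in 4 of the 19 that did neither. Lamp1, whose level did not pass the test, had 4 matches in the window, and Psap, Lgmn, Grn, Npc2 and Laptm5 had none. A match is only a run of letters in this window.

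As examples, 150 bases before the transcript start are given for a pair of members that rose (Gla, chrX:133501905-133502054, and Cln3, chr7:126182420-126182569, both minus strand), for Cd164, which fell (chr10:41395053-41395202, plus strand), for Gaa, which did not pass the test in Lipa-/- mice (chr11:119158563-119158712, plus strand), and for Hexa, which rose and had no match (chr9:59446673-59446822, plus strand). They are written 5′ to 3′, and capitals mark CACGTG with a T before it or an A after it where present.
Gla: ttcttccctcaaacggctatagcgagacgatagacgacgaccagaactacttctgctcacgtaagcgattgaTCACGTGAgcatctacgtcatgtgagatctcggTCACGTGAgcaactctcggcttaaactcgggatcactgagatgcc
Cln3: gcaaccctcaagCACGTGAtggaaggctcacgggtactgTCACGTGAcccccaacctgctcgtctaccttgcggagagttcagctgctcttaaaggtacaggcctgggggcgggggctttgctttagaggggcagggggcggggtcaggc
Cd164: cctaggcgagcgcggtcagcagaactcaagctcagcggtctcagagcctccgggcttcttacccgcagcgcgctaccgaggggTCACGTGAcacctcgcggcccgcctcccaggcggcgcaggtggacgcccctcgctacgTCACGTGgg
Gaa: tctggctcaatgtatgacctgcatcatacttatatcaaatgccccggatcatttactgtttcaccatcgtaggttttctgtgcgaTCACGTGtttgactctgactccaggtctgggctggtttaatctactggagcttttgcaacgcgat
Hexa: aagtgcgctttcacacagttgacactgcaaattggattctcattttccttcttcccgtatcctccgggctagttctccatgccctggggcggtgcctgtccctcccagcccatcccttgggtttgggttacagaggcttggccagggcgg
The same element thus stood before genes that rose, fell and did not pass the test, and was absent before Hexa.

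These genes took a larger share of all transcripts in Lipa-/- than in WT livers at both times. The summed level of the 42 members, in TPM (a transcript share that accounts for gene length), was 1445 ± 145 in WT and 4720 ± 667 in Lipa-/- mice at 12-weeks, and 1855 ± 352 and 6047 ± 1320 at 34-weeks (mean ± SD, n = 3 mice a group). In treated mice it was 1248 ± 158 TPM at 12-weeks and 1896 ± 111 TPM at 34-weeks. Psap, which encodes the precursor of the saposins, made up 8.19% of that sum in WT mice at 12-weeks and 33.5% in Lipa-/- mice, and 10.6% and 37.4% at 34-weeks. Without Psap, the sum was 1325 ± 110 TPM in WT and 3129 ± 335 TPM in Lipa-/- mice at 12-weeks, and 1651 ± 254 and 3764 ± 648 TPM at 34-weeks. All untreated Lipa-/- mice lay above all other mice, with and without Psap. TPM is a share within a library and not an amount per liver. On log2(TPM + 0.1), the median over all genes tested was itself higher in Lipa-/- than in WT mice, by 0.47 at 12-weeks and 0.66 at 34-weeks.

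**Figure D1:**
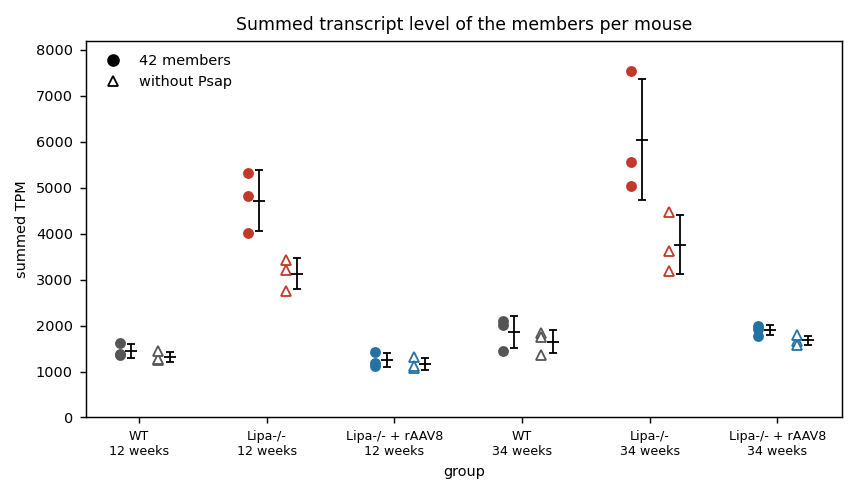
Summed TPM of the 42 members in each mouse (circles) and without Psap (open triangles) for the 6 groups on the x axis; black bars give the mean ± SD of 3 mice. The 6 untreated Lipa-/- mice sit between 4005 and 7539 TPM, and the other 12 mice between 1125 and 2103 TPM.

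To ask which members differed between Lipa-/- and WT livers, counts were compared with an edgeR quasi-likelihood test, and a gene was called where its log2 fold change was beyond 1 in either direction and its adjusted p under 0.05. Rose and fell are used only for called genes. At 12-weeks, 20 members rose, where 20.2% of all 14533 genes tested did, and 2 fell, where 9.06% did. At 34-weeks, 17 rose (20.5% of all genes) and 3 fell (15.7% of all genes). By adjusted p alone, 23 members were higher and 4 lower at 12-weeks (22.9% and 16.3% of all genes), and 21 and 4 at 34-weeks (23.8% and 23.5% of all genes). The median log2 fold change of the members was 0.95 at 12-weeks and 0.58 at 34-weeks, beside 0.02 and -0.03 over all genes.

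These counts depend on how libraries are scaled, because the median of all genes moves with it. Scaled by total counts, the median of all genes was 0.49 at 12-weeks and 0.60 at 34-weeks, and 25 members rose and 1 fell at 12-weeks and 24 rose and 1 fell at 34-weeks. The members that gained a call with total counts were Gm2a, Tpp1, Acp5, Npc1 and Ctns at 12-weeks and Manba, Ids, Pla2g15, Tpp1, Ppt1, Npc1 and Ctns at 34-weeks. With offsets for GC content and transcript length, 14 rose and 2 fell at 12-weeks and 12 rose and 2 fell at 34-weeks. Macrophage markers moved with the members that rose, and their part in the result was not tested. Of the 42 members, 28 have exons that overlap those of another annotated gene, and how reads were divided there was not tested.

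**Figure D2:**
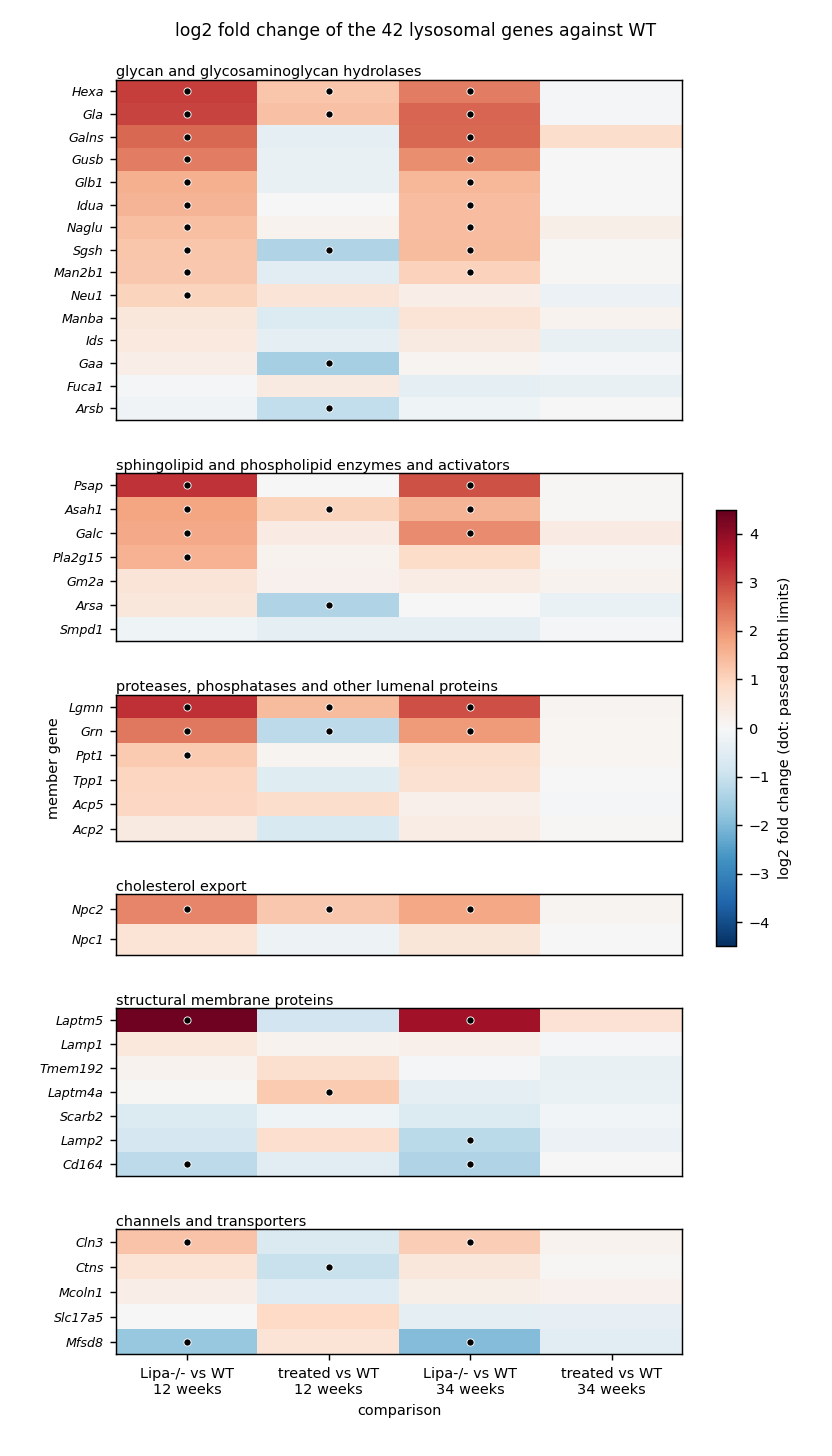
log2 fold change of each of the 42 members (grouped by role) against WT in untreated and in rAAV8-treated Lipa-/- mice at 12- and 34-weeks (columns); red is higher and blue lower than WT, and a dot marks members past both limits. Dots fill the upper part of the hydrolase groups in Lipa-/- mice, are fewer and of both directions in treated mice at 12-weeks, and are missing in treated mice at 34-weeks. Members are sorted within a role by their change at 12-weeks.

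Among the glycan and glycosaminoglycan hydrolases, 10 of 15 rose at 12-weeks and 9 at 34-weeks (20.2% and 20.5% of all genes). None fell (9.06% and 15.7% of all genes). The largest changes were those of Hexa, Gla, Galns and Gusb.

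Hexa (chr9:59446818-59474021, plus strand, 14 exons) encodes the alpha subunit of beta-hexosaminidase, which degrades GM2 ganglioside. At 12-weeks, Hexa was at 33.5, 41.97 and 33.1 CPM in WT, 255, 310.5 and 380.1 CPM in Lipa-/- and 87.8, 97.9 and 70.8 CPM in rAAV8-treated Lipa-/- mice. At 34-weeks, Hexa was at 54.8, 56.8 and 51.6 CPM in WT, 260.3, 298 and 239.8 CPM in Lipa-/- and 41.3, 50.5 and 67.2 CPM in rAAV8-treated Lipa-/- mice. Hexa had a log2 fold change against WT of 3.12 ± 0.23 (SE; adjusted p = 5.99e-08) at 12-weeks and 2.29 ± 0.22 (SE; adjusted p = 6.14e-07) at 34-weeks. The Lipa-/- mice lay above all WT mice at both times, at 8.71-fold and 4.89-fold the WT level. Treated mice lay between the other groups at 12-weeks and overlapped WT at 34-weeks.

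Gla (chrX:133488891-133501904, minus strand, 7 exons) encodes alpha-galactosidase A, which removes galactose from globotriaosylceramide. At 12-weeks, Gla was at 7.39, 7.51 and 4.40 CPM in WT, 34.4, 50.6 and 73.3 CPM in Lipa-/- and 18.8, 14.7 and 14.9 CPM in rAAV8-treated Lipa-/- mice. At 34-weeks, Gla was at 10.0, 5.40 and 5.88 CPM in WT, 47.9, 41.8 and 40.5 CPM in Lipa-/- and 6.79, 5.68 and 8.02 CPM in rAAV8-treated Lipa-/- mice. Gla had a log2 fold change against WT of 3.03 ± 0.31 (SE; adjusted p = 1.3e-06) at 12-weeks and 2.62 ± 0.30 (SE; adjusted p = 3.45e-06) at 34-weeks. Groups did not overlap at 12-weeks, with treated mice in the middle, and at 34-weeks treated and WT mice overlapped.

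Galns (chr8:123304976-123338276, minus strand, 14 exons) encodes a sulfatase of keratan sulfate. At 12-weeks, Galns was at 3.75, 4.74 and 3.87 CPM in WT, 25.02, 24.5 and 24.0 CPM in Lipa-/- and 1.46, 4.40 and 3.22 CPM in rAAV8-treated Lipa-/- mice. At 34-weeks, Galns was at 3.19, 4.93 and 4.75 CPM in WT, 26.7, 26.2 and 25.1 CPM in Lipa-/- and 6.75, 5.85 and 9.61 CPM in rAAV8-treated Lipa-/- mice. Galns had a log2 fold change against WT of 2.57 ± 0.30 (SE; adjusted p = 4.51e-06) at 12-weeks and 2.59 ± 0.29 (SE; adjusted p = 2.88e-06) at 34-weeks. Lipa-/- mice were high in all 6 cases, and 2 of the 3 treated mice at 12-weeks were below every WT mouse. At 34-weeks, treated mice lay above WT mice, but the difference did not pass the test (log2 fold change 0.78 ± 0.29 (SE; adjusted p = 0.645)).

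Gusb (chr5:130017852-130031903, minus strand, 12 exons) encodes beta-glucuronidase, which acts on several glycosaminoglycans. At 12-weeks, Gusb was at 18.5, 18.1 and 21.1 CPM in WT, 70.5, 90.6 and 121 CPM in Lipa-/- and 14.6, 16.4 and 15.1 CPM in rAAV8-treated Lipa-/- mice. At 34-weeks, Gusb was at 20.4, 33.1 and 30.6 CPM in WT, 133, 97.7 and 125 CPM in Lipa-/- and 26.1, 30.5 and 26.4 CPM in rAAV8-treated Lipa-/- mice. Gusb had a log2 fold change against WT of 2.29 ± 0.23 (SE; adjusted p = 9.7e-07) at 12-weeks and 2.08 ± 0.22 (SE; adjusted p = 1.71e-06) at 34-weeks. Treated mice were just below WT at 12-weeks and overlapped them at 34-weeks.

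Smaller rises at both times were those of Glb1 (beta-galactosidase), Idua, Naglu and Sgsh (enzymes of heparan sulfate breakdown) and Man2b1 (acid alpha-mannosidase). Their log2 fold changes lay between 1.22 for Man2b1 and 1.59 for Glb1 at 12-weeks, and between 1.05 and 1.51 for the same genes at 34-weeks. Naglu, Sgsh and Man2b1 were no longer called at either time with GC and length offsets, where their log2 fold changes were 0.74, 0.67 and 0.73 at 12-weeks, nor was Idua at 34-weeks (0.96). Man2b1 at 34-weeks was also not called without WT mouse 1 (log2 fold change 0.89).

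Neu1, a sialidase, was called at 12-weeks only, at the limit itself (log2 fold change 1.00 ± 0.20 (SE; adjusted p = 0.000972)). It fell short of that limit without either of WT mice 1 and 3 or Lipa-/- mice 8 and 9 (0.92 to 0.99), and with GC and length offsets (0.57), and its log2 fold change at 34-weeks was 0.31 ± 0.20 (SE; adjusted p = 0.23). Manba (beta-mannosidase) was higher by adjusted p alone at both times, with log2 fold changes of 0.52 and 0.63.

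Of the remaining glycan hydrolases, Gaa, the acid alpha-glucosidase that degrades glycogen, had a log2 fold change of 0.30 ± 0.47 (SE; adjusted p = 0.652) at 12-weeks and 0.11 ± 0.47 (SE; adjusted p = 0.866) at 34-weeks. Ids, Arsb and Fuca1, which encode iduronate sulfatase, arylsulfatase B and a fucosidase, lay between -0.16 (Arsb) and 0.45 (Ids) at 12-weeks and between -0.45 (Fuca1) and 0.40 (Ids) at 34-weeks. None of these 4 passed the test, and the signs of Fuca1 and Arsb turned when libraries were scaled by total counts.

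Among the sphingolipid and phospholipid enzymes and activators, 4 of 7 rose at 12-weeks and 3 at 34-weeks (20.2% and 20.5% of all genes). None fell (9.06% and 15.7% of all genes), and these small counts were not tested against the shares. Psap, Galc and Asah1, which act in the breakdown of sphingolipids, rose at both times.

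Psap (chr10:60113431-60138380, plus strand, 14 exons) was the most abundant member in Lipa-/- mice by TPM. At 12-weeks, Psap was at 286, 312 and 391.9 CPM in WT, 2589, 3314 and 3576 CPM in Lipa-/- and 307, 371 and 316 CPM in rAAV8-treated Lipa-/- mice. At 34-weeks, Psap was at 296, 546 and 534 CPM in WT, 3766, 3186 and 2968 CPM in Lipa-/- and 517, 461 and 456 CPM in rAAV8-treated Lipa-/- mice. Psap had a log2 fold change against WT of 3.26 ± 0.27 (SE; adjusted p = 2.28e-07) at 12-weeks and 2.85 ± 0.27 (SE; adjusted p = 5.07e-07) at 34-weeks. All untreated Lipa-/- mice lay far above all other mice, and treated and WT mice overlapped at both times. In TPM, Psap was at 120 ± 34.8 in WT and 1591 ± 333 in Lipa-/- mice at 12-weeks, and 205 ± 97.8 and 2283 ± 681 at 34-weeks.

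Galc (chr12:98167963-98225718, minus strand, 17 exons) encodes galactosylceramidase. At 12-weeks, Galc was at 7.34, 7.27 and 6.02 CPM in WT, 19.3, 25.9 and 22.2 CPM in Lipa-/- and 11.7, 6.79 and 8.20 CPM in rAAV8-treated Lipa-/- mice. At 34-weeks, Galc was at 6.37, 6.11 and 6.34 CPM in WT, 31.3, 31.5 and 18.9 CPM in Lipa-/- and 8.94, 9.23 and 6.26 CPM in rAAV8-treated Lipa-/- mice. Galc had a log2 fold change against WT of 1.71 ± 0.25 (SE; adjusted p = 4.17e-05) at 12-weeks and 2.12 ± 0.25 (SE; adjusted p = 3.87e-06) at 34-weeks. All Lipa-/- mice lay above WT and treated mice, and these overlapped each other at both times.

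Asah1, the acid ceramidase, rose 3.42-fold at 12-weeks and 2.89-fold at 34-weeks. Pla2g15, a lysosomal phospholipase, rose 2.94-fold at 12-weeks, and at 34-weeks its log2 fold change of 0.82 ± 0.21 (SE; adjusted p = 0.00455) passed the p limit but not the fold limit. Gm2a (the GM2 activator), Arsa (arylsulfatase A) and Smpd1 (acid sphingomyelinase) passed neither test, at 0.59, 0.51 and -0.19 at 12-weeks and 0.33, -0.02 and -0.43 at 34-weeks. The sign of Smpd1 turned when libraries were scaled by total counts.

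Among the proteases, phosphatases and other lumenal proteins, 3 of 6 rose at 12-weeks and 2 at 34-weeks (20.2% and 20.5% of all genes). None fell (9.06% and 15.7% of all genes), and these small counts were not tested against the shares.

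Lgmn (chr12:102359122-102414682, minus strand, 14 exons) encodes legumain, a protease that cuts after asparagine and processes cathepsins. At 12-weeks, Lgmn was at 42.01, 48.4 and 34.2 CPM in WT, 334, 426 and 456 CPM in Lipa-/- and 142, 110.5 and 83.4 CPM in rAAV8-treated Lipa-/- mice. At 34-weeks, Lgmn was at 63.9, 63.7 and 45.9 CPM in WT, 458, 481 and 349 CPM in Lipa-/- and 44.0, 52.8 and 90.4 CPM in rAAV8-treated Lipa-/- mice. Lgmn had a log2 fold change against WT of 3.29 ± 0.30 (SE; adjusted p = 4.37e-07) at 12-weeks and 2.89 ± 0.29 (SE; adjusted p = 9.69e-07) at 34-weeks. Treated mice lay between WT and Lipa-/- mice at 12-weeks and overlapped WT at 34-weeks.

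Grn (chr11:102321141-102327874, plus strand, 13 exons) encodes progranulin, a secreted and lysosomal protein. At 12-weeks, Grn was at 93.8, 80.6 and 106 CPM in WT, 563, 458 and 436 CPM in Lipa-/- and 15.2, 55.3 and 52.4 CPM in rAAV8-treated Lipa-/- mice. At 34-weeks, Grn was at 81.8, 184 and 158 CPM in WT, 556, 518 and 514 CPM in Lipa-/- and 148, 151 and 156 CPM in rAAV8-treated Lipa-/- mice. Grn had a log2 fold change against WT of 2.38 ± 0.38 (SE; adjusted p = 0.0001) at 12-weeks and 1.91 ± 0.37 (SE; adjusted p = 0.000444) at 34-weeks. Treated mice were the lowest group at 12-weeks, with mouse 10 far below the others, and at 34-weeks lay within the WT range.

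Ppt1, a thioesterase that removes palmitate from proteins, rose 2.24-fold at 12-weeks, a call lost without Lipa-/- mouse 9 (log2 fold change 0.92). At 34-weeks its log2 fold change was 0.78 ± 0.22 (SE; adjusted p = 0.00687). Tpp1, a tripeptidyl peptidase, was higher by adjusted p alone, at 0.95 and 0.68. The acid phosphatases Acp5 and Acp2 were at 0.94 and 0.40 at 12-weeks, where Acp5 passed the p limit, and at 0.24 and 0.32 at 34-weeks, where neither did.

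Of the cholesterol export pair, Npc2 rose at both times, and the call of Npc1 depended on the scaling. Npc2 (chr12:84801334-84820617, minus strand, 4 exons) encodes the soluble protein that binds cholesterol in the lumen and hands it to Npc1 in the membrane. At 12-weeks, Npc2 was at 75.6, 111 and 66.5 CPM in WT, 266, 435 and 458 CPM in Lipa-/- and 232, 201 and 159 CPM in rAAV8-treated Lipa-/- mice. At 34-weeks, Npc2 was at 117, 84.3 and 74.3 CPM in WT, 314, 336 and 262 CPM in Lipa-/- and 75.6, 94.8 and 133 CPM in rAAV8-treated Lipa-/- mice. Npc2 had a log2 fold change against WT of 2.19 ± 0.29 (SE; adjusted p = 1.91e-05) at 12-weeks and 1.73 ± 0.29 (SE; adjusted p = 0.000113) at 34-weeks. All Lipa-/- mice lay above all WT mice, and treated mice at 12-weeks lay between them.

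At 12-weeks, Npc1 was at 48.7, 41.3 and 82.7 CPM in WT, 84.8, 100 and 80.9 CPM in Lipa-/- and 46.1, 49.8 and 51.7 CPM in rAAV8-treated Lipa-/- mice. At 34-weeks, Npc1 was at 57.9, 65.9 and 91.3 CPM in WT, 114, 114 and 85.7 CPM in Lipa-/- and 94.3, 74.8 and 46.5 CPM in rAAV8-treated Lipa-/- mice. Npc1 had a log2 fold change against WT of 0.62 ± 0.28 (SE; adjusted p = 0.0872) at 12-weeks and 0.54 ± 0.28 (SE; adjusted p = 0.119) at 34-weeks. WT and Lipa-/- mice overlapped at both times, with 1 WT mouse at each time within the Lipa-/- range, and neither limit was passed. With total counts Npc1 was called at both times (log2 fold changes 1.07 and 1.17), as on log2(TPM + 0.1) (1.53 and 1.42). In TPM, Lipa-/- mice lay at 42.5 to 47.5 against 11.8 to 24.2 in WT at 12-weeks, and at 44.6 to 75.5 against 16.9 to 30.4 at 34-weeks, without overlap. With GC and length offsets the Npc1 values were 0.31 and 0.10, and no limit was passed. Whether the pair differed from each other in response was not tested.

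The membrane proteins held both rises and falls. Of the 7 structural membrane proteins, 1 rose and 1 fell at 12-weeks, and 1 rose and 2 fell at 34-weeks. Of the 5 channels and transporters, 1 rose and 1 fell at each time. Of all genes, 20.2% rose and 9.06% fell at 12-weeks, and 20.5% and 15.7% at 34-weeks. The small counts of membrane proteins were not tested against these shares. Laptm5 and Cln3 were those that rose, and Cd164, Lamp2 and Mfsd8 those that fell.

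Laptm5 (chr4:130638161-130663452, plus strand, 8 exons), a lysosomal membrane protein known from blood cells, had the largest fold change of all members. At 12-weeks, Laptm5 was at 7.88, 6.51 and 6.96 CPM in WT, 149, 164 and 130.4 CPM in Lipa-/- and 1.94, 5.00 and 4.52 CPM in rAAV8-treated Lipa-/- mice. At 34-weeks, Laptm5 was at 6.90, 23.7 and 13.97 CPM in WT, 240.3, 214 and 155 CPM in Lipa-/- and 28.8, 17.1 and 24.5 CPM in rAAV8-treated Lipa-/- mice. Laptm5 had a log2 fold change against WT of 4.37 ± 0.41 (SE; adjusted p = 5.81e-07) at 12-weeks and 3.77 ± 0.40 (SE; adjusted p = 1.38e-06) at 34-weeks. Lipa-/- mice were 20.7-fold and 13.6-fold above WT. At 12-weeks treated mice were all below WT mice, but the difference did not pass the test (log2 fold change -0.87 ± 0.38 (SE; adjusted p = 0.0824)). The summed macrophage markers of the same treated mice were above those of WT mice. Lyz2, at 1166 against 54.0 CPM in WT, made up most of that sum. Most of these markers rose, but Csf1r (15.3 against 19.6 CPM), Cd14, Itgam, Ly6c2 and Mrc1 were not called.

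Lamp1 (chr8:13209121-13227360, plus strand, 9 exons), a major glycoprotein of the lysosomal membrane, is widely used as its marker. At 12-weeks, Lamp1 was at 528, 589 and 556 CPM in WT, 607, 836 and 899 CPM in Lipa-/- and 588, 606 and 654 CPM in rAAV8-treated Lipa-/- mice. At 34-weeks, Lamp1 was at 589, 536 and 583 CPM in WT, 634, 685 and 685 CPM in Lipa-/- and 476, 579.7 and 580.1 CPM in rAAV8-treated Lipa-/- mice. Lamp1 had a log2 fold change against WT of 0.48 ± 0.19 (SE; adjusted p = 0.0543) at 12-weeks and 0.23 ± 0.19 (SE; adjusted p = 0.341) at 34-weeks. Lipa-/- mice lay above WT mice at both times, by small margins, and the difference passed no limit. With total counts Lamp1 passed the p limit but not the fold limit (0.96 and 0.87).

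Lamp2 (chrX:37488520-37545340, minus strand, 9 exons), the other major LAMP, takes part in autophagy. At 12-weeks, Lamp2 was at 707, 814 and 653 CPM in WT, 308, 470.2 and 496 CPM in Lipa-/- and 1544, 975 and 1130 CPM in rAAV8-treated Lipa-/- mice. At 34-weeks, Lamp2 was at 908, 584 and 632 CPM in WT, 281, 309 and 332 CPM in Lipa-/- and 508, 632 and 637 CPM in rAAV8-treated Lipa-/- mice. Lamp2 had a log2 fold change against WT of -0.77 ± 0.25 (SE; adjusted p = 0.0212) at 12-weeks and -1.20 ± 0.25 (SE; adjusted p = 0.000853) at 34-weeks. Lipa-/- mice lay below all WT mice at both times, and the call was made at 34-weeks only. Without WT mouse 1, it fell short of the fold limit (log2 fold change -0.98), and with total counts it was -0.29 at 12-weeks and -0.54 at 34-weeks. The call was also lost on log2(TPM + 0.1), on log2(TPM + 1) and with GC and length offsets. In TPM, treated and WT mice overlapped at 12-weeks (292.2 to 336.3 and 294.3 to 313.9), unlike in CPM.

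Cd164 (chr10:41395203-41408322, plus strand, 6 exons), a sialomucin of endosomes and lysosomes, fell at both times. At 12-weeks, Cd164 was at 309, 314 and 339 CPM in WT, 121, 168 and 141 CPM in Lipa-/- and 207, 212 and 278 CPM in rAAV8-treated Lipa-/- mice. At 34-weeks, Cd164 was at 264, 299.8 and 327 CPM in WT, 103, 116 and 133 CPM in Lipa-/- and 303, 312 and 279.6 CPM in rAAV8-treated Lipa-/- mice. Cd164 had a log2 fold change against WT of -1.16 ± 0.19 (SE; adjusted p = 0.000139) at 12-weeks and -1.34 ± 0.19 (SE; adjusted p = 2.64e-05) at 34-weeks. In CPM, Lipa-/- mice lay below all WT mice. In TPM at 34-weeks the groups overlapped, at 61.55 to 74.07 in Lipa-/- and 72.96 to 137.4 in WT mice. With total counts, the log2 fold change was -0.70 and -0.73, past the p limit and short of the fold limit. The call was also lost on log2(TPM + 0.1) and log2(TPM + 1) at both times.

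Mfsd8 (chr3:40757932-40801631, minus strand, 12 exons), a lysosomal membrane protein mutated in a childhood neuronal ceroid lipofuscinosis, had the largest drop. At 12-weeks, Mfsd8 was at 16.0, 17.6 and 12.7 CPM in WT, 3.05, 5.67 and 5.33 CPM in Lipa-/- and 33.1, 19.5 and 19.1 CPM in rAAV8-treated Lipa-/- mice. At 34-weeks, Mfsd8 was at 19.5, 12.1 and 11.7 CPM in WT, 3.06, 3.59 and 4.41 CPM in Lipa-/- and 8.86, 10.9 and 10.9 CPM in rAAV8-treated Lipa-/- mice. Mfsd8 had a log2 fold change against WT of -1.72 ± 0.29 (SE; adjusted p = 0.000195) at 12-weeks and -1.96 ± 0.29 (SE; adjusted p = 4.36e-05) at 34-weeks. Lipa-/- mice were 3.29-fold and 3.90-fold below WT. With total counts it still fell, at -1.24 and -1.31, on log2(TPM + 1) it was short of the fold limit, at -0.99 and -0.96, and the groups did not overlap at either time. The median GC content of the 4 members lower by adjusted p alone (Cd164, Lamp2, Mfsd8 and Scarb2) was 42.5% against 53.3% for the 23 that were higher at 12-weeks, and the part of GC content was tested only through the offsets, under which these log2 fold changes lay between -1.81 and -0.80 at 12-weeks.

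Cln3, a membrane protein of another neuronal ceroid lipofuscinosis, rose 2.43-fold and 2.15-fold. The call was lost with GC and length offsets (0.97 and 0.99) and, at 34-weeks, without WT mouse 1 (just under 1). Scarb2, the receptor that carries glucocerebrosidase to the lysosome, was lower by adjusted p alone, at -0.62 and -0.60. Its sign at 34-weeks turned with total counts (0.04).

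With TMM scaling, no limit was passed by Laptm4a and Tmem192 among the structural proteins. The calcium channel Mcoln1, the cystine exporter Ctns and the sialic acid exporter Slc17a5 also passed none. At 12-weeks these 5 lay between 0.01 (Slc17a5) and 0.62 (Ctns), and at 34-weeks between -0.46 (Laptm4a) and 0.52 (Ctns). With total counts at 34-weeks, Ctns was called (1.14) and Mcoln1 passed the p limit but not the fold limit (0.92). The signs of Laptm4a, Tmem192 and Slc17a5 turned there.

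**Figure D3:**
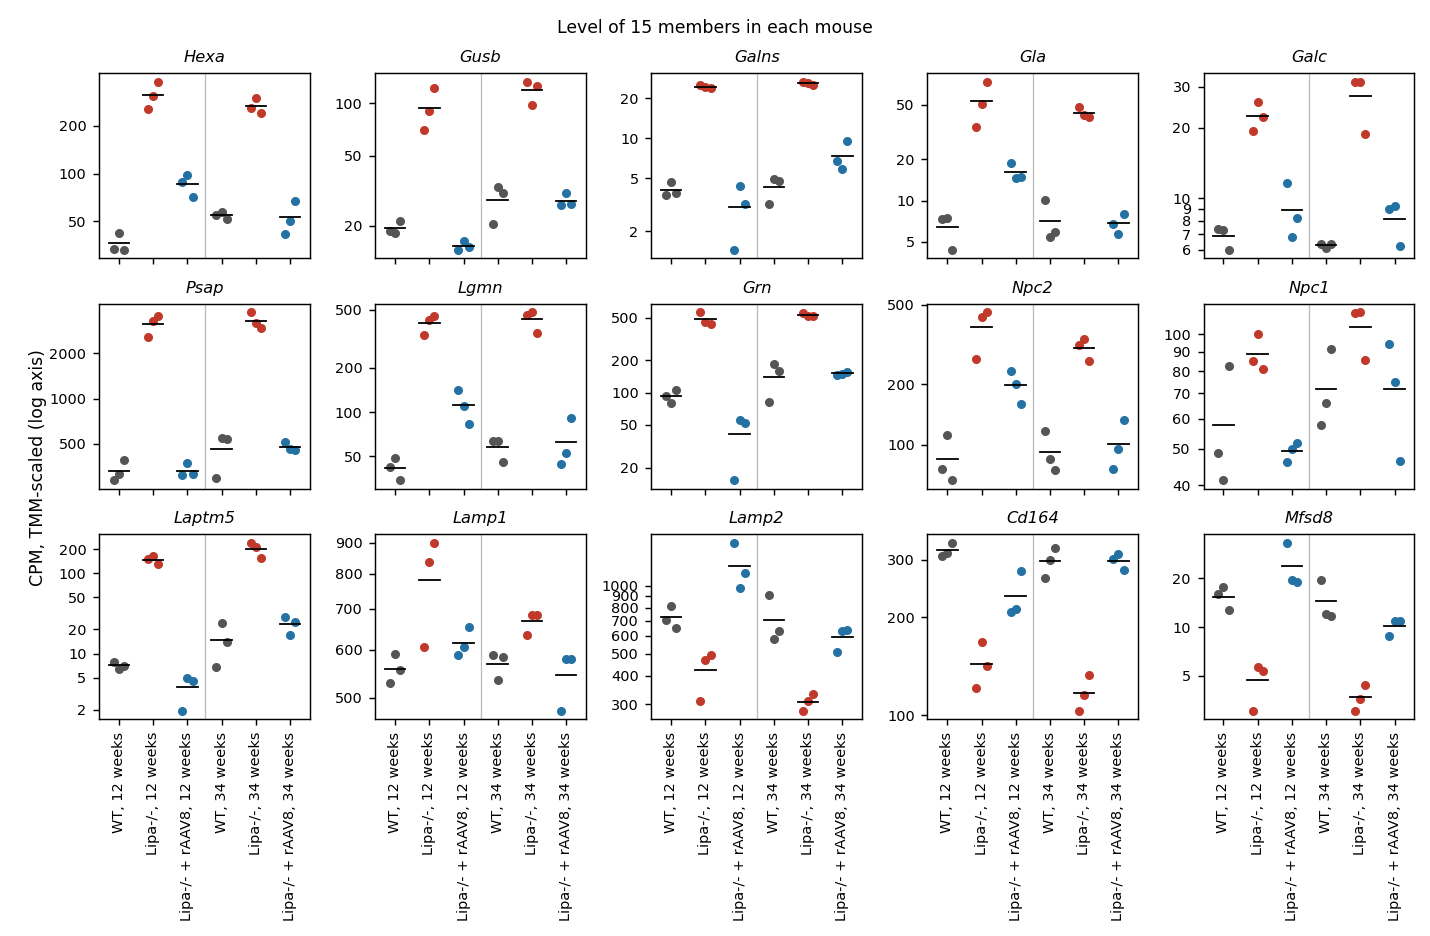
Level of 15 members in each of the 18 mice, in CPM after TMM scaling on log axes, with 1 panel a gene; points are mice, black bars group means, grey is WT, red Lipa-/- and blue rAAV8-treated Lipa-/-. Hexa, Gusb, Galns, Gla, Galc, Psap, Lgmn, Grn, Npc2 and Laptm5 are highest in Lipa-/- mice at both times, and Lamp2, Cd164 and Mfsd8 are lowest there.

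The picture in Lipa-/- mice was alike at both times. The 17 members that rose at 34-weeks had all risen at 12-weeks, 3 rose at 12-weeks only (Neu1, Pla2g15 and Ppt1), and Cd164 and Mfsd8 fell at both. The sign was the same at both times for 38 of 42 members, and these comparisons share no mice. To ask whether the difference from WT itself changed between times, an interaction was fitted. No member was called (0.0619% of all genes were), with edgeR and with DESeq2. At an unadjusted p under 0.05 there were 3, Hexa, Neu1 and Pla2g15, with log2 differences of -0.83, -0.69 and -0.74 (adjusted p = 0.358, 0.43 and 0.43). This does not show that the responses were equal. Because some Lipa-/- mice labelled 34-weeks were taken earlier at an endpoint, the interaction cannot separate time from disease stage.

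**Figure D4:**
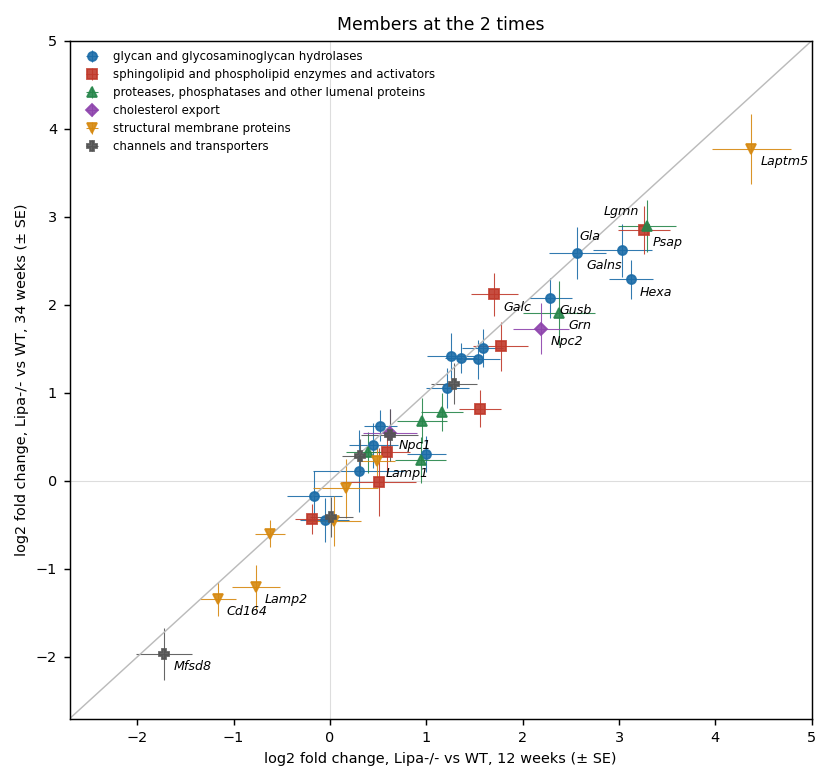
log2 fold change of each member between Lipa-/- and WT mice at 12-weeks (x axis) and 34-weeks (y axis), with SE bars; symbols give the role and the grey line equality. Laptm5, Psap, Lgmn, Hexa and Gla lie farthest to the upper right and Mfsd8 farthest to the lower left.

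In rAAV8-treated Lipa-/- mice at 34-weeks, no member was called against WT mice by edgeR (0.131% of all genes rose and 0.0895% fell), and none by DESeq2. At an unadjusted p under 0.05 there was 1, Galns, named above. The median log2 fold change of the members was 0.00, and 0.00 over all genes. Of the 42 members, 40 lay within 0.5 of zero on the log2 scale, and the SE was 0.16 to 0.47. The 2 outside were Galns (0.78) and Laptm5 (0.66 ± 0.36 (SE; adjusted p = 0.926)). A call needed a log2 fold change beyond 1 and an adjusted p under 0.05. Differences larger than the SE could therefore go uncalled, as these 2 did. Mfsd8, at -0.49 ± 0.28 (SE; adjusted p = 0.926), lay below WT in all 3 treated mice in CPM, but on log2(TPM + 0.1) the sign turned (0.05) and the groups overlapped in TPM.

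Set against untreated Lipa-/- mice of 34-weeks, 15 members were lower in treated mice, where 18.6% of all genes were, and 2 were higher, where 12.8% were. Cd164 (1.35) and Mfsd8 (1.47) were the higher ones, and Laptm5 (-3.11), Psap (-2.79), Lgmn (-2.78), Gla (-2.66) and Hexa (-2.33) the lowest by log2 fold change. Scaled by total counts, 25 were lower and none higher, where the median of all genes was -0.51. These contrasts share mice with those above, so their values are given beside them and not as separate evidence. The Lipa-/- mice here include those taken earlier at an endpoint, so the groups were not matched in time. The summed macrophage markers were 3340 to 5870 CPM in these Lipa-/- mice and 268 to 694 CPM in treated mice, and their part was not tested.

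At 12-weeks, members were called in both directions between treated and WT mice. Of the 42 members, 6 rose (13.6% of all genes did) and 6 fell (12.0%). These counts were close to the shares over all genes, so they say nothing particular to the members. By adjusted p alone, 10 were higher and 10 lower (19.4% and 17.5% of all genes). The median of the members was -0.12, beside 0.06 over all genes. The 6 that rose were Lgmn (1.43 ± 0.28 (SE; adjusted p = 0.0036)), Gla (1.32 ± 0.30 (SE; adjusted p = 0.00565)), Hexa (1.24 ± 0.22 (SE; adjusted p = 0.00236)), Npc2 (1.22 ± 0.28 (SE; adjusted p = 0.00654)), Laptm4a (1.16 ± 0.29 (SE; adjusted p = 0.00849)) and Asah1 (1.01 ± 0.28 (SE; adjusted p = 0.0125)), as log2 fold changes. The 6 that fell were Gaa (-1.50 ± 0.48 (SE; adjusted p = 0.0243)), Arsa (-1.36 ± 0.40 (SE; adjusted p = 0.0169)), Sgsh (-1.34 ± 0.28 (SE; adjusted p = 0.00425)), Grn (-1.19 ± 0.36 (SE; adjusted p = 0.0198)), Arsb (-1.09 ± 0.29 (SE; adjusted p = 0.0113)) and Ctns (-1.01 ± 0.31 (SE; adjusted p = 0.0192)).

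Gaa was at 51.3, 45.4 and 81.1 CPM in WT and 5.05, 29.0 and 28.4 CPM in treated mice, and Laptm4a at 253, 284 and 217 and 703, 479 and 503 CPM. For both genes treated mouse 10 stood apart from the other treated mice. Psap, with the largest absolute rise in Lipa-/- mice, was at a log2 fold change of 0.01 ± 0.25 (SE; adjusted p = 0.989) in treated mice.

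These 12 calls depended on single mice and on the scaling. Without treated mouse 10 there were 6 calls (4 higher and 2 lower), and without WT mouse 3 also 6 (5 higher and 1 lower). Gaa, Grn, Arsa, Asah1 and Ctns were not called in either case, with Gaa at -1.11 and -1.21. Scaled by total counts, where the median of all genes was -0.33, 1 member rose and 9 fell, with log2(TPM + 0.1) none rose and 14 fell, and with GC and length offsets 4 rose and 2 fell. Across all genes the log2 fold change of this contrast had a rank correlation of -0.22 with GC content and -0.32 with transcript length (14307 genes with a value), and across the members -0.30 with each, as a description over genes that share libraries. Of the 14 macrophage and monocyte markers, 9 rose in these treated mice, and their part was not tested. TMM factors of the treated mice were 0.587 to 0.759, below those of every other mouse. The part of GC content and length was tested only through the offsets.

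Against untreated Lipa-/- mice of 12-weeks, 23 members were lower in treated mice (25.3% of all genes were) and 3 higher (16.2%). Laptm5 (-5.25), Grn (-3.56), Psap (-3.25), Galns (-2.98) and Gusb (-2.62) were the lowest by log2 fold change, and Mfsd8 (2.35), Lamp2 (1.52) and Laptm4a (1.12) were higher. The Laptm4a value was -0.02 on TPM, so its direction is not settled. The Lamp2 call was lost with total counts (0.62), log2(TPM + 0.1) (0.50) and GC and length offsets (0.64). Scaled by total counts, 34 were lower and 1 higher, where the median of all genes was -1.05.

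To ask whether the difference of treated from WT mice changed between times, the second interaction was fitted. In it, 1 member was called higher at 34- than at 12-weeks relative to WT, Sgsh (8.58% of all genes were), and 5 lower, Laptm4a, Gla, Lgmn, Hexa and Slc17a5 (9.83%). Scaled by total counts, 8 were higher and none lower, with log2(TPM + 0.1) 10 were higher and none lower, and with GC and length offsets none was higher and 7 lower. Leaving out 1 mouse gave between 0 and 10 calls, with 0 without WT mouse 1 or 3 of 12-weeks or without WT mouse 1 or treated mouse 9 of 34-weeks, 1 when treated mouse 10 of 12-weeks was left out, and 10 for treated mouse 12 of either time or the 34-weeks WT mouse 2. Fitted on only the 12 mice of these groups, no member was called.

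Of 52 other genes of the lysosome, from 3 lists, 20 rose in Lipa-/- mice at each time. Over all genes 20.2% rose and 9.06% fell at 12-weeks, and 20.5% and 15.7% at 34-weeks. The counts below were not tested against these shares. Of 26 other hydrolases and lumenal proteins, 11 rose at 12-weeks and 9 at 34-weeks, and 0 and 1 fell. Of 20 other membrane proteins and transporters, 8 rose at each time, and 0 and 1 fell. Of 6 genes of mannose 6-phosphate sorting, 1 rose at 12-weeks (Gnptab) and 3 at 34-weeks (Sort1, Gnptab and Igf2r). In treated mice at 34-weeks, none of the 52 was called against WT by edgeR, with 2 at an unadjusted p under 0.05, and 1 by DESeq2. By edgeR only 0.131% of all genes rose and 0.0895% fell there, so this says nothing particular to these genes.

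Cd63 and Pld3 were among the largest rises at both times. Cd63, a tetraspanin of late endosomes and lysosomes, was at 6.11 ± 2.92 CPM in WT and 820 ± 102 CPM in Lipa-/- mice at 12-weeks, and 8.91 ± 1.95 and 692 ± 92.4 CPM at 34-weeks (mean ± SD, n = 3). Its log2 fold change was 7.07 ± 0.45 (SE; adjusted p = 2.05e-08) and 6.28 ± 0.44 (SE; adjusted p = 4.71e-08). In treated mice Cd63 was at 83.9 ± 42.1 CPM at 12-weeks and 24.4 ± 4.42 CPM at 34-weeks.

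Pld3, a lysosomal exonuclease of nucleic acids, had log2 fold changes of 3.94 ± 0.32 (SE; adjusted p = 1.66e-07) and 3.77 ± 0.32 (SE; adjusted p = 2.11e-07). The other lysosomal genes that fell, both at 34-weeks, were Arsg, a sulfatase (-1.21 ± 0.25, SE), and Tmem106b, a lysosomal membrane protein (-1.05 ± 0.19, SE).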

How the data were processed

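Liver polyA RNA was sequenced from 18 mice, grouped by genotype, treatment and time in their labels. The authors quantified paired-end reads on GRCm39 transcripts with Salmon, then used tximport for gene totals. These deposited estimated counts are not scaled for library size. The deposited TPM values were computed by the authors within each mouse, and their deposited gene lengths, in bases, were used as offsets in an alternative. The authors' table of comparisons (DESeq2 1.40.1 in R 4.3.0) holds fold changes and adjusted p values and was not used.

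In R 4.3.3, counts were rounded, and genes with over 100 summed reads (14533 of 35441) were fitted in edgeR 4.0.16 with TMM factors and 6 group means. All p values are from its quasi-likelihood test, two-sided, adjusted by Benjamini-Hochberg over all genes tested. Called means an adjusted p under 0.05 together with a log2 fold change beyond 1 in size. Alternatives used DESeq2 1.42.0, limma 3.58.1 on log2(TPM + 0.1) and log2(TPM + 1), other scaling and filters, and each mouse left out. Offsets for GC content and length were chosen after seeing the data. The members and lists were chosen with earlier results of these data known. Members given in every mouse were those called in Lipa-/- against WT mice at both times with a fold over 4 at either, those called lower there or called in treated mice at 34-weeks, and Lamp1, Lamp2, Npc1 and Npc2. Gaa and Laptm4a were added after their values were seen. Of the other lysosomal genes, up to 3 called with the largest fold in each direction were named, except 1 that is not reported here. The fit was run on simulated counts in which 200 genes were changed, as many up as down. That simulation does not probe how the calls depend on scaling. Counts were from separate mice, and their number limits the precision.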

Additional observations from a re-analysis of the deposited data

Results flagged for a closer look

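For 6 members the difference between rAAV8-treated Lipa-/- and WT mice changed between times by an interaction test (34-weeks minus 12-weeks, edgeR's quasi-likelihood test with Benjamini-Hochberg adjustment over all genes). Of all genes tested, 8.58% were called higher and 9.83% lower in this interaction. Both directions together, this was a larger share than among the members, though the share called lower was somewhat larger among the members. The calls therefore say nothing particular to them. The change in log2 fold change was -1.28 ± 0.30 for Hexa (SE; adjusted p = 0.0241) and -1.37 ± 0.42 for Gla (SE; adjusted p = 0.0351), both higher than WT in treated mice at 12-weeks. It was -1.32 ± 0.39 for Lgmn (SE; adjusted p = 0.0325) and -1.47 ± 0.40 for Laptm4a (SE; adjusted p = 0.0274). Slc17a5, the sialic acid exporter, had -1.27 ± 0.32 (SE; adjusted p = 0.0249), and Sgsh, lower than WT at 12-weeks, had 1.38 ± 0.37 (SE; adjusted p = 0.0269). None of the 6 calls held under every alternative, and the time cannot be told apart from the study code.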

How the results depend on the processing

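Of the called members, 14 of 22 and 12 of 20 kept their call under every alternative in Lipa-/- against WT mice at 12- and 34-weeks, 14 of 26 and 13 of 17 in treated against Lipa-/- mice, and 0 of 12 in treated against WT mice at 12-weeks. The members' median log2 fold change in Lipa-/- against WT mice was 1.42 (total counts), 1.403 (TPM + 0.1), 1.29 (TPM + 1) and 0.52 (GC and length offsets) at 12-weeks, and 1.22, 1.21, 1.13 and 0.36 at 34-weeks, with 0.77 by upper-quartile scaling. In treated against Lipa-/- mice it was -1.97, -2.20, -1.86 and -0.65 at 12-weeks (-1.24 to -1.03 with each mouse left out) and -1.17, -1.22, -1.13 and -0.35 at 34-weeks, with -0.75 by upper-quartile scaling. In treated against WT mice at 12-weeks it was -0.53 (total counts), -0.68 (TPM + 0.1) and -0.54 (TPM + 1), and -0.26 to 0.072 with each mouse left out. At 34-weeks it was 0.0522 (upper quartile), 0.0792 (total counts), -0.0168 (length offsets), 0.135 (TPM + 0.1), 0.109 (TPM + 1), 0.0158 (only these groups), -0.0477 (GC and length offsets) and -0.0401 to 0.0883 with each mouse left out.

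Counts of called members moved in treated against WT mice at 12-weeks (20 by adjusted p alone, 6 with GC and length offsets, 6 to 13 with each mouse left out), in treated against Lipa-/- mice at 34-weeks (27 by adjusted p alone) and in the treated interaction (13 with DESeq2, 10 with TPM + 0.1, 0 with only these groups, 0 to 10 with each mouse left out). Laptm4a in treated against Lipa-/- mice at 12-weeks reversed with TPM + 0.1 and with TPM + 1 (-0.017 each). The cause was not tested.

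Mouse numbers recur between times only. The deviations of same-numbered WT mice correlated at 0.0763, -0.24 and 0.46, and not every mouse correlated best with its own number. Each sample was a separate mouse and the study codes differ between times, so a shared number does not mark the same mouse. With 3 WT mice a time, these correlations cannot decide whether it stands for anything else. No paired analysis was possible within a time because the groups compared there share no mouse numbers. With the number as a replicate block, 0 members were called in either interaction, and 0 with the block and GC and length offsets together. A term for each number leaves little from which to estimate the spread. Number 9 was also an untreated mouse at 12-weeks and a treated mouse at 34-weeks. These counts of 0 therefore decide nothing about the interactions.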
